A study of Mus musculus with 24 samples.

Results

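Neural progenitors (NPs) carrying premethylated fragments were compared with NPs carrying the same fragments inserted without methylation. The comparison took 3 of the 24 samples of the series, which were 1 pool of unmethylated fragments (−SssI) and 2 samples of premethylated fragments (+SssI) that the authors merged into 1 table. In Hi-TransMet, a bacterial DNA fragment called FR1 holds a single transcription factor motif, either intact (WT) or scrambled (Sc), and is recombined into a targeting site at the β-globin locus of mouse embryonic stem cells (ESCs). The β-globin genes, from Hbb-bt to Hbb-y, lie at chromosome 7, 103812524 to 103853216, in GRCm38, and the coordinate of the insertion is not given in the sources used here. For +SssI, the plasmid library was treated with M.SssI, a bacterial enzyme that methylates CpGs, before transfection. Both conditions used ESCs of strain C57BL/6 X 129S5 with the targeting site, and the transfected pools were differentiated as cellular aggregates with retinoic acid until day 8. The fragments therefore passed through ESC culture before becoming NPs, and each library was a mixed pool of cells, not a clone. Members were chosen by condition and cell type from the labels, and a CpG was compared where both tables held at least 10 reads. This left 61 of the 62 fragments in the tables (30 WT, 30 Sc and FR1 without a motif) and 1443 of 1466 CpG values. The fragment c-REL Sc did not reach 10 reads in both tables at any CpG. Where 1 table did, its upstream CpGs read 0% in −SssI and its downstream CpGs 98.4% in +SssI.

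CpG methylation is copied after replication by DNMT1, which UHRF1 recruits to half-methylated DNA, and is laid down anew by DNMT3A and DNMT3B. It is lost when this copying fails or when TET enzymes oxidise the methyl group. The comparison asks whether a fragment ends at the same level when it starts methylated as when it starts unmethylated. Pioneer factors can bind closed chromatin. Some, such as CTCF and REST, are known for low methylation around their genomic sites.

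The reads came in runs, numbered in the tables, whose link to cultures or sequencing libraries is not given. The +SssI table held 9 runs, and there were 7 in that of −SssI. Runs whose reads were spread over the fragments in the same way (a Pearson correlation of at least 0.8) were taken as 1 set, giving 5 sets for +SssI and 4 for −SssI. In both tables, runs 2, 9 and 10 made up a set. Runs 1, 8 and 11 formed another set in +SssI, and runs 8 and 11 in −SssI. Within runs 2, 9 and 10 of −SssI, the upstream reads over fragments differed by no more than sampling noise (chi-square tests, p from 0.0795 to 0.999), and these runs were counted as 1 set. In +SssI, runs 1 and 11 downstream, runs 2 and 9 upstream and runs 9 and 10 downstream did not differ beyond sampling noise either. The other comparisons of joined runs were alike but differed beyond sampling noise. Among them were runs 2 and 10 of +SssI, which had a correlation of 0.874 upstream. Run 12 of +SssI held 21 reads, all of FOXA1 WT. One +SssI sample was labelled as Sanger sequenced, and no label ties it to a run. Among the NP and ESC pools, only those with a Sanger sample (NP +SssI and ESC −SssI) held a run 12. The number of reads at a CpG had a median of 420 in +SssI (range 10 to 3659) and 256 in −SssI (range 11 to 4619). With 1 pooled table per condition, the tests below compare the reads of these pools and not replicate cultures. Intervals are for 95% confidence and cover counting error only.

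Separate RNA-seq libraries of wild-type NPs (n = 3) were used to check the cell type. The neural progenitor genes were expressed, with Nes, an intermediate filament, at 79.5 ± 16.7 RPKM (SD, n = 3), Sox2 at 58.0 ± 6.05 and Pax6, a neural transcription factor, at 15.9 ± 3.30. The pluripotency genes Pou5f1, Nanog, Zfp42 and Esrrb averaged between 0.834 and 1.18 RPKM, and Klf4, on the same list, 3.00 RPKM. Foxa2, an endoderm factor that the floor plate also uses, stood at 10.9 ± 1.48 RPKM. The other endoderm genes Gata6, Sox17 and Gata4 averaged 4.48, 4.14 and 2.25 RPKM, and the mesoderm genes T and Mesp1 0.235 and 0.0236. Tubb3, a neuronal tubulin, stood at 111.2 ± 46.3 RPKM. The part of endoderm or neuronal cells in the methylation values was not tested. Dnmt1 averaged 72.1 ± 2.75 RPKM and Uhrf1 59.2 ± 2.27 RPKM, against 15.7 ± 2.20 for Dnmt3a and 6.66 ± 1.50 for Dnmt3b. Among the TET genes, means lay between 3.54 (Tet2) and 8.32 RPKM (Tet3). Of 26 factor genes of the tested motifs, 23 reached a mean log2(1 + RPKM) of 1.

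After 8 days of differentiation the fragments were highly methylated from either start. Sc fragments averaged 86.6% ± 6.25 (SD over 30 fragments) in +SssI and 89.9% ± 3.46 in −SssI. WT fragments averaged 77.2% ± 15.3 in +SssI and 82.7% ± 14.4 in −SssI, and FR1 without a motif stood at 86.6% and 89.9%. The mean difference, +SssI minus −SssI, was −3.29 points over Sc fragments (SD 6.97, with 21 of 30 below 0) and −5.50 points over WT fragments (SD 13.9, with 17 of 30 below 0). Without runs 1, 8 and 11 of +SssI the mean differences were −1.15 points (Sc) and −3.23 points (WT), without run 7 they were −5.64 and −7.46, and without run 8 the Sc mean was −2.21. The WT mean was −10.04 points without runs 2, 9 and 10 of +SssI and −8.06 without those of −SssI. Means with runs left out are over the fragments that kept enough reads, so they are not strictly like the means over all runs. For example, KLF4, SOX2, SOX17 and N-MYC WT had +SssI sets with 10 or more reads only in runs 2, 9 and 10. Within run numbers found in both tables, the means were −5.49 (Sc) and −1.58 points (WT). These took only fragments and CpGs with 10 or more reads of a shared run in both tables, which left out FOXA1 and N-MYC WT. The difference for FR1 without a motif was −3.30 points (95% interval −11.2 to 4.59).

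**Figure D1:**
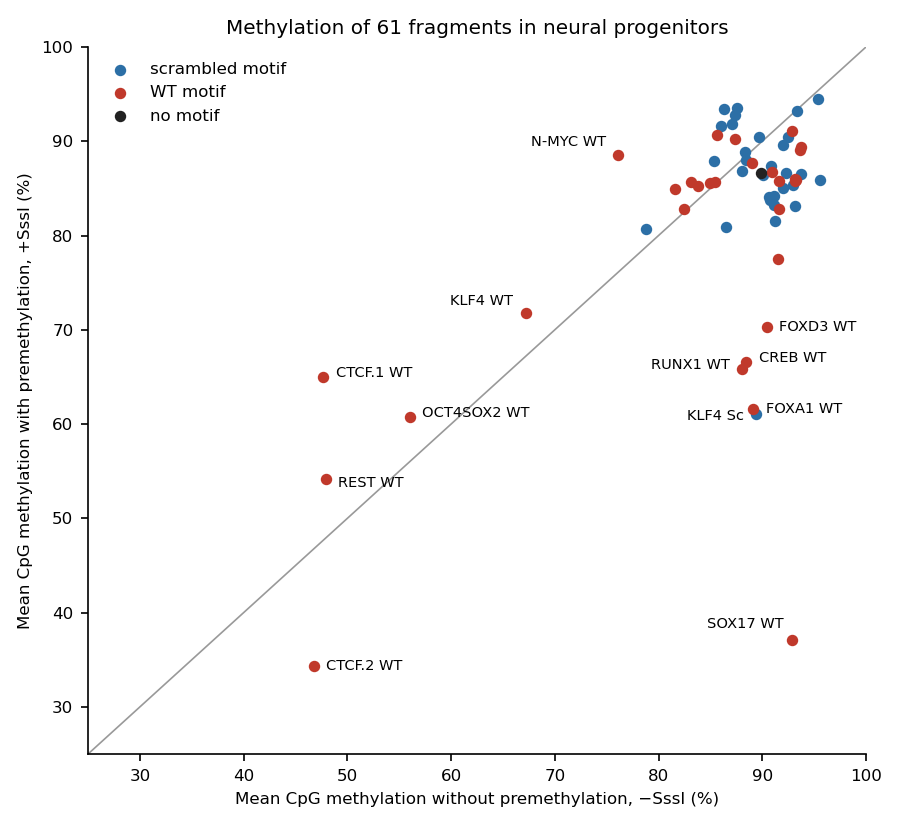
Mean CpG methylation of each of 61 fragments in NPs, with −SssI on the x axis and +SssI on the y axis (both in %). Red points are WT motifs, blue points scrambled motifs, black FR1 without a motif, and the grey line marks equal levels. Most fragments crowd above 80% on both axes, CTCF.1, CTCF.2, REST and OCT4SOX2 WT are below 70% on both, and SOX17 WT falls far below the line.

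Most fragments were near the top in both conditions. Of the 30 Sc fragments, 28 stood at 80% or more in both pools, as did 18 of the 30 WT fragments and FR1 without a motif. Across the 1443 CpG values, 399 were at least 10 points lower in +SssI with an adjusted p under 0.05 (two-sided Fisher's exact test, Benjamini-Hochberg adjustment), which is 27.7% of those tested, and 185 were higher, which is 12.8%. Among Sc fragments 172 of 709 CpGs were lower and 74 higher. WT fragments had 223 of 710 lower and 110 higher. Without runs 1, 8 and 11 of +SssI, 252 CpGs were lower, but fewer could be tested. RUNX1 WT and PAX7.2 Sc, for example, had +SssI sets with 10 or more reads only in those runs. By position, the mean difference over Sc fragments ranged from −10.4 points at the CpG 242 bp upstream to 1.50 points at the CpG 151 bp downstream. That downstream CpG was the least methylated of the Sc fragments in both pools, at 63.4% and 61.9%.

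Regions were called where at least 3 consecutive CpGs, spanning over 50 bp, passed in the same direction. A region lower in +SssI was found in 10 of 61 fragments (16.4%) and a region higher in +SssI in 2 (3.28%). The lower regions were in SOX17, FOXA1, FOXD3, CREB, RUNX1, ZF5 and PAX7.1 WT, and in KLF4, SOX2 and ZF5 Sc. The higher ones were in CTCF.1 and KLF4 WT. Without runs 1, 8 and 11 of +SssI, 6 of the fragments still compared had a lower and 5 a higher region. Without runs 8 and 11 of −SssI, 5 had a higher region. Over all runs, the other 49 fragments had none, among them CTCF.2, REST, OCT4SOX2, SOX9, SOX2, OCT4 and N-MYC WT.

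**Figure D2:**
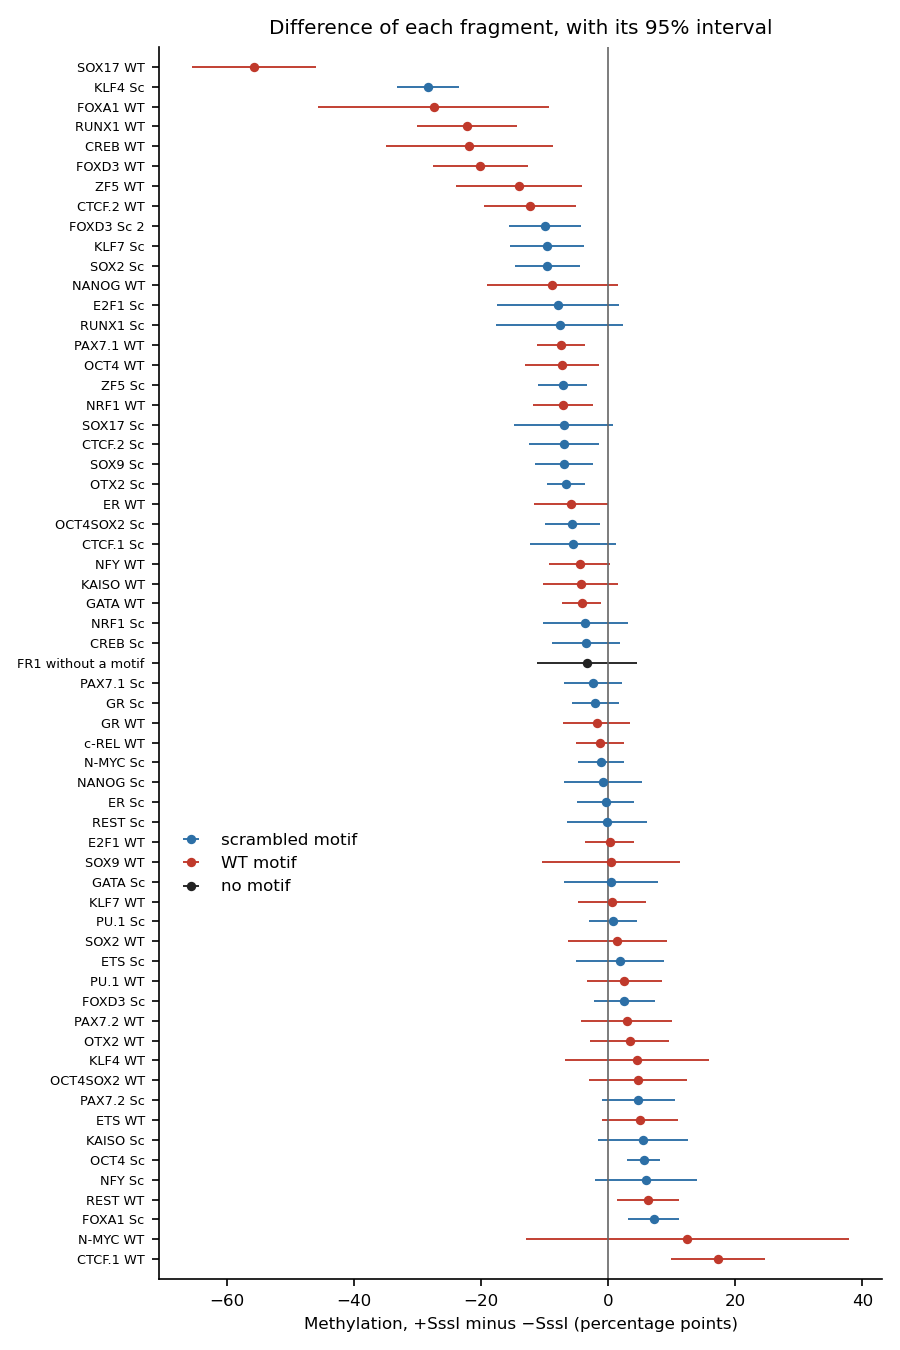
Difference in mean methylation between +SssI and −SssI (percentage points, x axis) for each of 61 fragments, ordered by size, with 95% intervals of counting error as bars. SOX17 WT lies at −55.7 points, apart from all others, KLF4 Sc is next at −28.4, and CTCF.1 WT is the highest at 17.3.

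SOX17 WT had the lowest +SssI level relative to −SssI of all fragments. SOX17 is an endoderm factor of the SRY-related HMG-box family, and its gene averaged 4.14 ± 1.09 RPKM in these NPs (SD, n = 3). The premethylated fragment was at 37.1% and the unmethylated one at 92.8%, a difference of −55.7 points (95% interval −65.5 to −46.0). The lower region ran from 291 bp upstream to 151 bp downstream and took in 22 of the 23 CpGs, by 57.8 points on average. Within it +SssI was uneven, with 3 of 139 reads methylated at the CpG 178 bp upstream (2.16%) and 111 of 139 at 235 bp upstream (79.9%), where −SssI had 98.9% and 100%. Upstream, the +SssI runs 2, 9 and 10 gave 34.7%, 34.8% and 43.2%, and the −SssI runs 2, 8, 9 and 10 gave 97.8% to 99.7%. The runs of the 2 conditions did not overlap, and the only +SssI set with 10 or more reads was runs 2, 9 and 10. The scrambled counterpart stood at 83.8% in +SssI and 90.8% in −SssI, with a difference of −7.00 points whose interval reached 0.777, and with a single run left out it lay between −12.1 and 0.904 points. In ESCs, the same SOX17 WT fragment was at 14.6% in +SssI and 56.0% in −SssI, so it was also lower there when premethylated (−41.4 points, half-width of the interval 11.1).

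The forkhead motifs FOXA1 and FOXD3 also had lower WT fragments, and both rested on few reads or few runs. FOXA1 opens closed chromatin in endoderm, and its gene averaged 16.02 ± 3.66 RPKM in NPs. FOXA1 WT was at 61.6% in +SssI and 89.1% in −SssI (−27.5 points, 95% interval −45.6 to −9.38), with a median of 29 reads per CpG in +SssI. Upstream, its only +SssI run with 10 or more reads was run 12 (54.2%, 21 reads), against 89.3% and 90.5% in the −SssI sets. Whether run 12 is the Sanger sample is not given. Without run 12 the difference was −24.3 points, with a half-width of 30.7. FOXD3, a factor of pluripotent and neural crest cells, had a gene level of 2.15 ± 0.808 RPKM. FOXD3 WT averaged 70.3% in +SssI and 90.5% in −SssI (−20.2 points, 95% interval −27.6 to −12.7), with 21 of 23 CpGs lower. The +SssI sets differed widely from one another, with 19.9% in runs 1, 8 and 11 and 88.4% in runs 2, 9 and 10, while the 3 −SssI sets ranged from 89.6% to 99.7%. Without run 1 the difference was −4.02 points (half-width 6.85), without run 10 it was −32.4, without runs 1, 8 and 11 it was −3.74, and without runs 2, 9 and 10 it was −67.5. Within run numbers found in both tables it was −2.45. A second scrambled version of the FOXD3 motif differed by −10.01 points (95% interval −15.7 to −4.35), with 74.3% in runs 1, 8 and 11 and 94.6% in runs 2, 9 and 10, and the first scrambled version stood at 87.9% and 85.4% (−11.7 points within shared run numbers). Without runs 1, 8 and 11 the second version differed by −0.27 points, without runs 2, 9 and 10 by −22.3, and without run 8 by −4.69.

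CREB, RUNX1 and ZF5 also had lower WT fragments. CREB is a signal-responsive activator whose motif holds a CpG, and Creb1 averaged 8.16 ± 1.58 RPKM. CREB WT was at 66.6% in +SssI and 88.5% in −SssI (−21.9 points, 95% interval −35.0 to −8.76), with a region from 242 to 121 bp upstream that was lower by 35.1 points. At 9 of the 18 upstream CpGs, between 33 and 35 of 51 reads were methylated. The CpG inside the CREB motif did not pass the test, with 82.8% of 180 reads methylated in +SssI and 83.9% of 1333 in −SssI. The sets of CREB WT overlapped between conditions, with 53.1% in runs 2, 9 and 10 and 88.9% in run 6 (19 reads) against 86.9% and 93.7%. Without runs 2, 9 and 10 of +SssI the difference was −16.5 points (half-width 18.4), without the same runs of −SssI it was −15.8 (half-width 15.9), and within shared run numbers it was −38.2. RUNX1, a haematopoietic factor, had a WT fragment at 65.8% in +SssI and 88.1% in −SssI (−22.2 points, 95% interval −30.1 to −14.4). Its only upstream +SssI set with 10 or more reads was runs 1, 8 and 11 (63.3%), and the −SssI sets gave 90.6% (runs 2, 9 and 10) and 64.6% (runs 8 and 11, 43 reads). Without runs 2, 9 and 10 of −SssI the RUNX1 WT difference was −0.56 points (half-width 16.2), and within run numbers found in both tables RUNX1 WT was 36.7 points higher in +SssI. The 36.7 points came from run 8 upstream alone, at 70.4% in +SssI (27 reads) and 33.7% in −SssI (23 reads). ZF5, a zinc finger protein encoded by Zbtb14, had a WT fragment at 77.5% in +SssI and 91.5% in −SssI (−14.1 points, 95% interval −24.0 to −4.06). Its upstream sets read 29.7% and 82.8% in +SssI and 94.4% in the single −SssI set. ZF5 Sc was lower as well, by −7.20 points, and WT minus Sc for ZF5 changed by −7.29 points (half-width 10.7).

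A scrambled motif had the second largest difference. KLF4 Sc stood at 61.1% in +SssI and 89.4% in −SssI (−28.4 points, 95% interval −33.2 to −23.5), and 23 of its 24 CpGs were lower. Its upstream CpGs read 2.66% in runs 2, 9 and 10, 71.3% in runs 1, 8 and 11 and 95.6% in run 7, while the −SssI sets lay between 83.4% and 94.7%. Without runs 2, 9 and 10 of +SssI the difference was −3.49 points (half-width 4.47), without run 2 it was −15.5, without run 7 it was −52.6, and within run numbers found in both tables it was −62.1. Sets with low methylation were found in both conditions. OCT4 Sc in −SssI read 90.3% in runs 2, 9 and 10 and 4.70% in runs 8 and 11 (25 reads), and E2F1 WT in +SssI ranged from 14.1% to 90.6% between sets. OCT4 Sc in +SssI read 91.4% to 97.0% in its 3 sets. Over all reads OCT4 Sc was higher in +SssI, by 5.61 points (95% interval 3.02 to 8.19), by 39.1 points with sets weighted equally, and by 84.2 points without runs 2, 9 and 10 of −SssI.

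**Figure D3:**
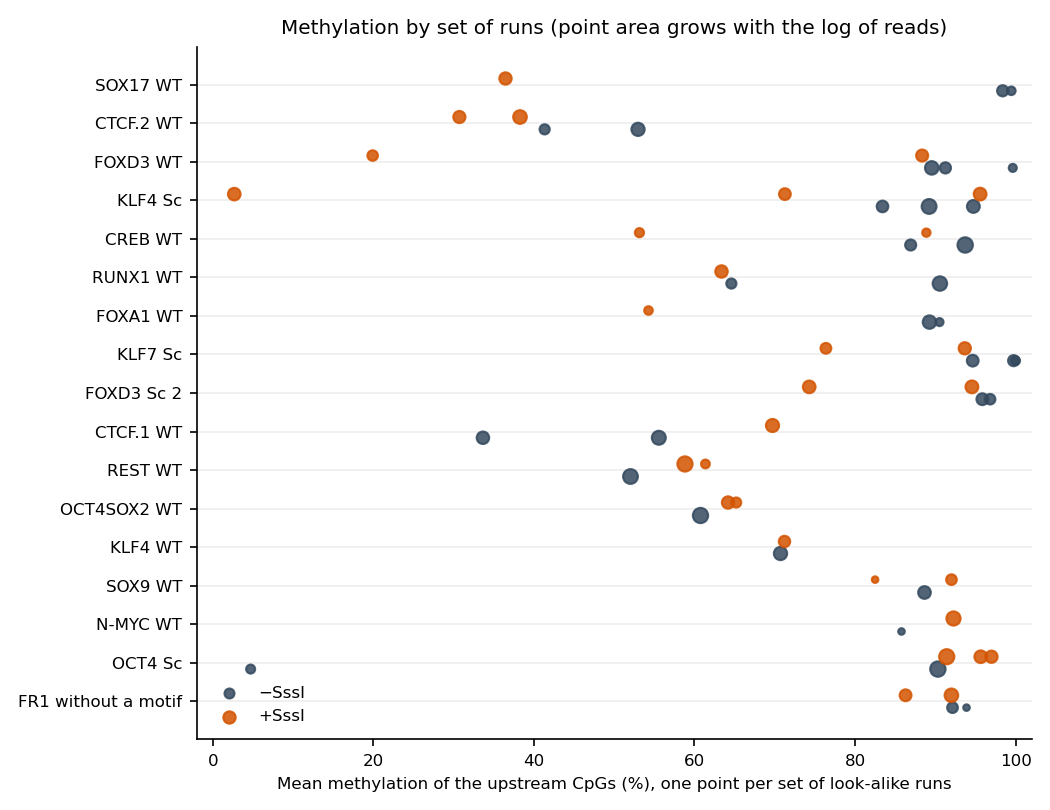
Mean methylation of the upstream CpGs (%, x axis) for 17 fragments, with 1 point for each set of look-alike runs with at least 10 reads, orange for +SssI and dark for −SssI. Points of larger area have more reads. The +SssI points of FOXD3 WT and KLF4 Sc are spread from 19.9% to 88.4% and from 2.66% to 95.6%. The conditions overlap for KLF4 Sc, CREB WT and SOX9 WT. They separate for the other fragments, among them SOX17, CTCF.2 and FOXD3 WT and FR1 without a motif, some with 1 point in a condition.

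Methylation therefore varied between sets of runs within a condition as well as between conditions. Among fragments read by 2 or more sets, the range between sets of the upstream mean had a median of 7.03 points in +SssI (42 fragments, 15 with a range of at least 10 points) and 5.19 points in −SssI (40 fragments, 10 with at least 10 points). The highest ranges were 92.9 points for KLF4 Sc in +SssI and 85.6 points for OCT4 Sc in −SssI. In 27 fragments with 2 or more sets in both conditions, every +SssI set was below every −SssI set in 9 (33.3%) and above in 1 (3.7%), and they overlapped in the other 17. The 9 were CTCF.2, FOXD3 and NFY WT, FR1 without a motif, and the Sc versions of FOXD3 (the second), GR, KLF7, OTX2 and OCT4SOX2. KLF7 Sc stood at 85.9% in +SssI and 95.6% in −SssI (−9.64 points, 95% interval −15.4 to −3.88), by −19.8 points without run 6, −6.17 without run 8, −3.99 without runs 1, 8 and 11 and −19.4 within shared run numbers.

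CTCF, the insulator protein, and REST, the repressor of neuronal genes in other cells, had fragments that were low from either start. Ctcf averaged 42.6 ± 3.69 RPKM and Rest 10.2 ± 1.49 RPKM in NPs. CTCF.2 WT was the lowest of the 61 compared fragments in both pools, at 34.4% in +SssI and 46.8% in −SssI (−12.4 points, 95% interval −19.6 to −5.15). Its sets read 30.7% and 38.3% in +SssI and 41.3% and 53.0% in −SssI, without overlap. Of its CpGs 13 were lower and 1 higher in +SssI, but no 3 in a row passed over more than 50 bp. Without runs 2, 9 and 10 of −SssI its difference was −5.39 points (half-width 15.3). CTCF.1 WT went the other way, at 65.0% in +SssI and 47.7% in −SssI (17.3 points, 95% interval 9.92 to 24.7), with 19 of 24 CpGs higher and a region from 121 to 32 bp upstream. Upstream, CTCF.1 WT in +SssI had 10 or more reads in run 7 alone (69.6%), against 33.6% and 55.6% in the −SssI sets. Its difference was 34.1 points without run 7 and 34.4 points without runs 8 and 11 of −SssI, and 31.8 within shared run numbers. Outside the motif CpG, the 31.8 points came from runs 8 and 11 downstream (10 and 20 reads in +SssI). Run 7 downstream read 48.9% in +SssI (176 reads), against 51.4% in the −SssI set. REST WT was at 54.2% in +SssI and 47.9% in −SssI (6.26 points, 95% interval 1.43 to 11.1), with 61.4% and 58.8% in the +SssI sets and 51.9% in the single −SssI set. Without runs 2, 9 and 10 of +SssI the REST WT difference was 8.94 points (half-width 20.5).

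The low fragments had a dip around the motif in both conditions. The CpG inside the motif was nearly free of methylation, at 0.637% of 471 reads and 0.122% of 818 reads for CTCF.1 WT in +SssI and −SssI, and at 0.084% of 1191 and 2.00% of 499 for CTCF.2 WT. The same CpG of the scrambled motifs stood at 46.6% and 58.2% for CTCF.1 and at 86.0% and 79.2% for CTCF.2. Over the CpGs from 121 bp upstream to 109 bp downstream, CTCF.2 WT averaged 25.4% in +SssI and 38.3% in −SssI, and beyond 200 bp it averaged 62.1% and 77.4%. REST WT averaged 44.6% and 37.4% over the near CpGs, and 77.5% and 72.1% beyond 200 bp. Across the CpGs of a fragment, the levels of the 2 conditions had a Pearson correlation of 0.943 for REST WT (24 CpGs), 0.929 for OCT4SOX2 WT (23), 0.868 for CTCF.2 WT (24) and 0.844 for CTCF.1 WT (24), and of 0.314 for SOX17 WT (23). These CpGs share reads and are described without a test. FR1 without a motif had 0.789.

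**Figure D4:**
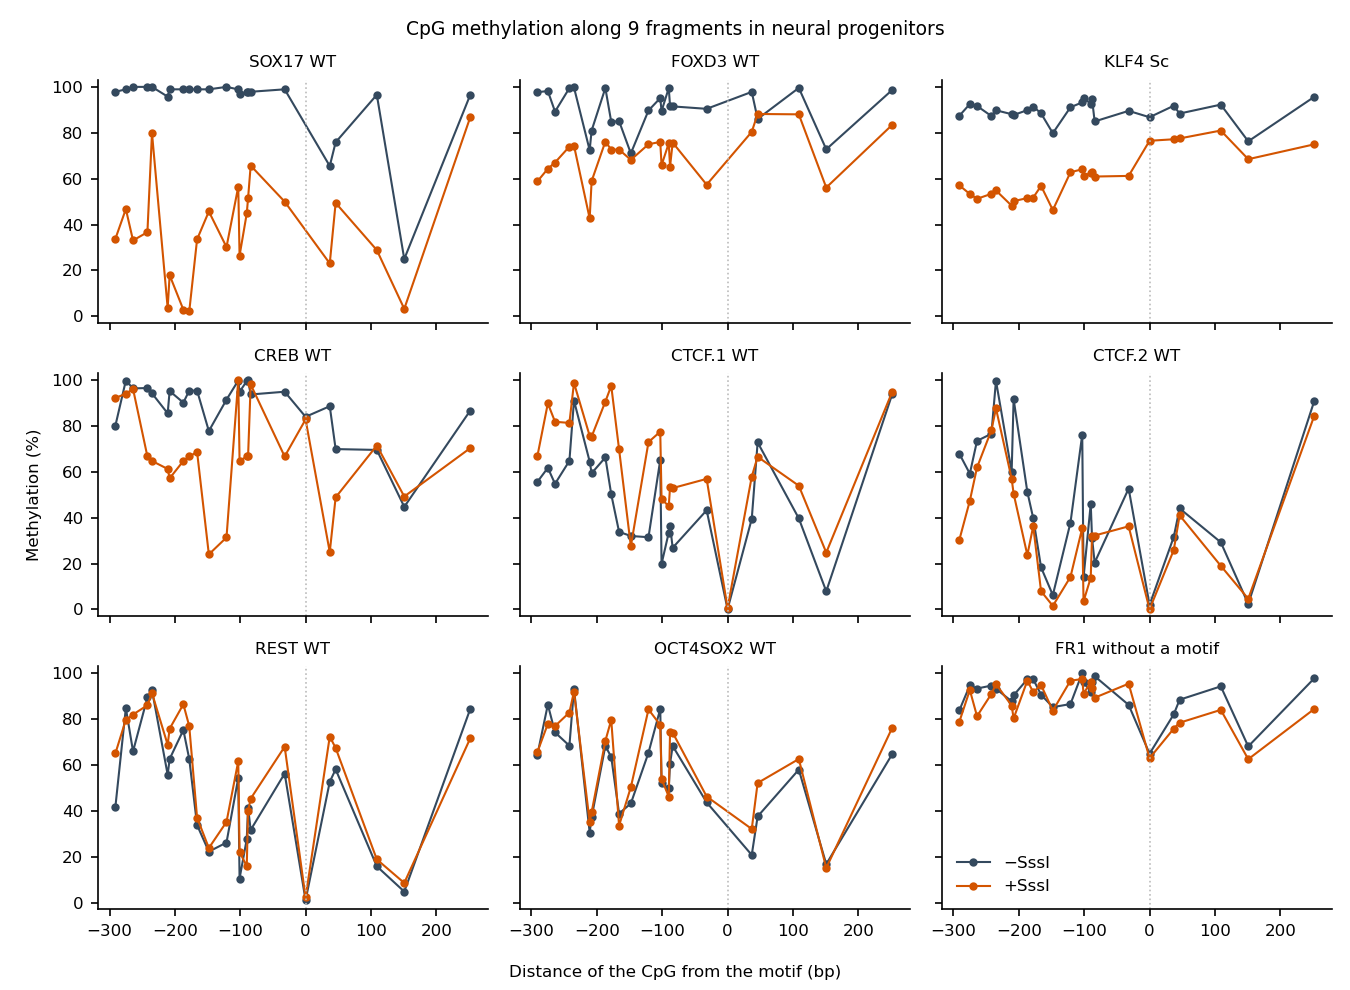
CpG methylation (%, y axis) along 9 fragments by distance from the motif (bp, x axis, motif CpG drawn at 0), orange for +SssI and dark for −SssI. CTCF.1, CTCF.2 and REST WT dip to near 0 at the motif in both conditions, OCT4SOX2 WT follows 1 course in both, and SOX17 WT is below −SssI from 291 bp upstream to 151 bp downstream.

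OCT4SOX2 is the composite site of OCT4 and SOX2, the pair that runs the pluripotent network. OCT4SOX2 WT stood at 60.7% in +SssI and 56.0% in −SssI (4.72 points, 95% interval −2.97 to 12.4). Without run 7 of −SssI, which held nearly all of its upstream reads there, the difference was 18.95 points (half-width 20.9), and without run 7 of +SssI it was 8.24. With all calls of OCT4SOX2 WT pooled over CpGs it was −0.18 points, and in the downstream CpGs alone 8.07 points (half-width 7.67). Its upstream sets read 65.2% and 64.2% in +SssI and 60.7% in −SssI, all of them below every set of its scrambled version (88.4% to 92.7%). WT and Sc of OCT4SOX2 had no upstream set with 10 or more reads in common in either condition. Motif version and run set therefore cannot be told apart in these values. SOX2 WT was at 85.2% and 83.8%, a difference of 1.42 points (95% interval −6.40 to 9.23), which was −2.36 without run 2 and 7.61 without run 10 of +SssI. In the downstream CpGs of SOX2 WT it was 11.6 points (half-width 10.3). OCT4 WT was at 85.9% in +SssI and 93.2% in −SssI (−7.35 points, 95% interval −13.2 to −1.54), and the interval took in 0 without run 7 of +SssI (−3.66 points, half-width 6.18). Its sets overlapped, from 83.9% to 96.7% in +SssI and from 91.7% to 99.7% in −SssI. Pou5f1, which encodes OCT4, averaged 1.18 ± 0.773 RPKM, far less than Sox2 at 58.0 RPKM.

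KLF4, a zinc finger factor of reprogramming, had a WT fragment at 71.8% in +SssI and 67.2% in −SssI (4.55 points, 95% interval −6.79 to 15.9). The KLF4 WT difference was −3.97 without run 10, 7.57 without run 9 and 8.59 without run 2 of +SssI, and 13.2 points (half-width 8.46) in the downstream CpGs. KLF4 WT had CpGs called both ways, 10 higher and 6 lower in +SssI. The higher region ran from 32 bp upstream to 46 bp downstream, by 29.1 points, and took in the CpG of the motif, at 75.1% of 374 reads in +SssI and 40.7% of 455 in −SssI. Its only upstream set with 10 or more reads was runs 2, 9 and 10, at 71.1% in +SssI and 70.7% in −SssI. Klf4 averaged 3.00 ± 0.201 RPKM in NPs.

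Over the whole fragment, the intervals for SOX9 and N-MYC WT took in 0. SOX9 marks neural stem cells and glial precursors and its gene averaged 22.1 ± 2.82 RPKM. SOX9 WT stood at 82.8% in +SssI and 82.4% in −SssI (0.426 points, 95% interval −10.4 to 11.3). With a single run left out, the SOX9 WT difference ranged from −5.05 (without run 8 of +SssI) to 3.64 points (without run 1 of +SssI). Its downstream CpGs were uneven within +SssI, at 27.5% and 18.3% in runs 1 and 11 and at 80% and 91.2% in runs 6 and 8. N-MYC, a growth factor-responsive E-box binder of neural precursors, had a gene level of 55.6 ± 3.84 RPKM. N-MYC WT was at 88.6% in +SssI and 76.1% in −SssI, with a median of 12 reads per CpG in −SssI and an interval of the difference from −13.0 to 37.9 points. Its downstream CpGs differed by 39.9 points (half-width 19.1), at 85.4% in +SssI and 45.5% in −SssI. Of the 24 CpGs of N-MYC WT, 6 were higher and 1 lower in +SssI, with 99.3% of 413 reads against 11.1% of 27 reads at the CpG 252 bp downstream. Run 7 was the only −SssI run with 10 or more of its reads (a median of 24 downstream).

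Whether the effect of a motif depended on the starting state was asked of WT minus Sc in each condition. This change was tested at 686 CpGs of 29 motifs (Wald test on the difference of differences, Benjamini-Hochberg adjustment), using the first scrambled version of FOXD3. WT and Sc of a motif did not always share run sets. Upstream in +SssI, SOX2 WT had 10 or more reads only in runs 2, 9 and 10, and SOX2 Sc only in runs 1, 8 and 11. WT and Sc of FOXA1, CTCF.1, OCT4SOX2 and N-MYC also had no upstream +SssI set with 10 or more reads in common. For these motifs and SOX2, motif version and run set cannot be told apart there. REST WT rested mostly on runs 2, 9 and 10 (955 reads) and REST Sc on runs 1, 8 and 11 (195 reads). WT minus Sc was lower in +SssI at 31.5% of CpGs and higher at 24.1%, by at least 10 points. A region of the first kind was found for 10 motifs (34.5%) and of the second kind for 5 (17.2%). SOX17 changed the most, from 2.07 points in −SssI (half-width 8.98) to −46.7 in +SssI (half-width 8.68), a change of −48.7 (half-width 12.5). FOXA1 changed from 2.80 to −31.9, FOXD3 from 5.09 to −17.6, CREB from −2.36 to −20.8 and RUNX1 from −4.88 to −19.5. Without premethylation, WT and Sc of these 5 differed by 5.09 points or less. The second scrambled version of FOXD3 was itself lower in +SssI, at 83.1% against 93.1% in −SssI. Set against that version, the FOXD3 change is smaller. The number of motifs with a region of either kind was 15 over all runs and 8 under a likelihood-ratio test. Without run 1 of +SssI it was 9. Without runs 1, 8 and 11 of +SssI, or without runs 2, 9 and 10 of −SssI, it was 7, with fewer CpGs to test.

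CTCF.2, REST and OCT4SOX2 had WT fragments far below their scrambled versions in both conditions. CTCF.2 had −44.3 points in −SssI and −49.8 in +SssI, a change of −5.44 (half-width 9.13). REST had −45.4 and −39.0, a change of 6.43 (half-width 7.95). OCT4SOX2 had −36.3 and −25.9, a change of 10.3 (half-width 8.82), with a region of change in the downstream CpGs that was lost without run 7 of −SssI. CTCF.1 went from −38.8 to −15.9, a change of 22.9 (half-width 10.01), but had no region. Upstream in +SssI, CTCF.1 Sc read 57.7% in runs 1, 8 and 11 and 92.4% in runs 2, 9 and 10. The difference of CTCF.1 Sc was −31.0 points (half-width 10.1) without runs 2, 9 and 10 of +SssI. Without runs 1, 8 and 11 of +SssI it was 3.60 (half-width 6.56). KLF4 went from −22.2 to 10.7, a change of 32.9 (half-width 12.3), in which the low reads of KLF4 Sc in runs 2, 9 and 10 enter. N-MYC changed by 13.6 (half-width 25.7) and SOX9 by 7.37 (half-width 11.8).

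**Figure D5:**
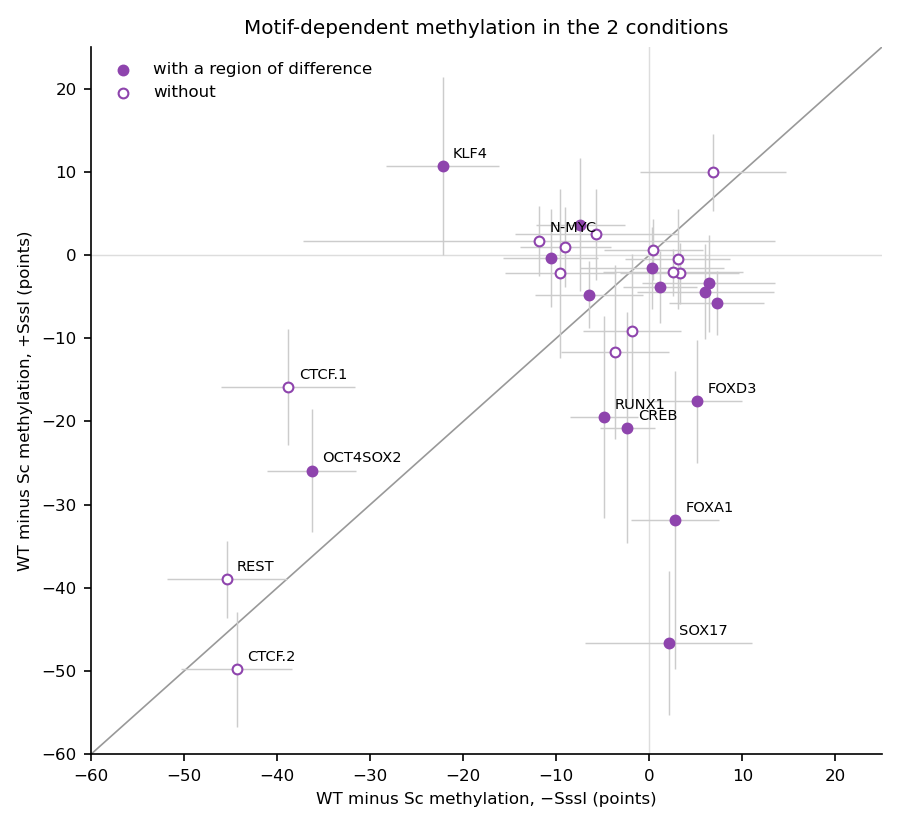
WT minus Sc methylation of 29 motifs (percentage points), with −SssI on the x axis and +SssI on the y axis, bars for 95% intervals and a grey line for equal values. Filled points have a region of change. SOX17, FOXA1, FOXD3, CREB and RUNX1 lie near 0 on the x axis and far below it on the y axis, and CTCF.2 and REST are at −39.0 or below on both axes.

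In ESCs the mean difference between the same conditions had the opposite sign. Sc fragments averaged 67.7% ± 10.7 in +SssI and 56.5% ± 17.2 in −SssI there, 11.1 points higher with premethylation (SD 19.4, with 9 of 30 below 0). WT fragments averaged 51.4% and 48.0%, a mean difference of 3.46 points (SD 20.2) with 15 of 30 below 0. The median absolute difference between conditions was 12.6 points for Sc and 13.1 for WT fragments in ESCs, against 5.602 and 5.43 in NPs. REST WT in ESCs stood at 10.97% and 11.5%, OCT4SOX2 WT at 16.2% and 12.1% and KLF4 WT at 12.9% and 13.4%, below their NP levels from both starts. The difference between cell types was not tested.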

How the data were processed

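Hi-TransMet bisulfite amplicons of NP pools were analysed. Per the study's methods, the authors demultiplexed reads with Flexbar, assigned them to motifs, removed PCR duplicates by molecular identifiers, and called methylation with Bismark (0.20.0 in the submitters' notes), pooling biological and technical replicates. The deposited tables hold, per fragment, CpG and run, counts of reads and of methylated reads. The deposited percent tables (at least 10 reads) differed from the percentages recomputed here by at most 0.0005 points. The authors' RNA-seq gene counts (STAR 2.6.1b, featureCounts, GRCm38, unstranded counting of a stranded kit) were converted to RPKM with the deposited gene lengths, given in other units (bp). Library totals were 20519702 to 22132988 counts.

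Counts were summed over runs, from 300 bp upstream to 260 bp downstream. CpGs inside the motif carry codes, not positions. A fragment's level is the mean over its CpGs, and its interval uses the median reads per CpG. Tests used scipy 1.17.1 on Python 3.11.15 and were checked on simulated reads. Smoothing and the dispersion model of the DSS package, which the authors used, were not applied in the main tests. The alternatives covered coverage, amplicon, run weights, left-out runs, region rules and the test.

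Named motifs were SOX17, SOX9, SOX2, OCT4, OCT4SOX2, FOXA1, FOXD3, CREB, KLF4, N-MYC, REST, both CTCF motifs, FR1 without a motif, and in each direction the 5 WT and 5 Sc fragments with the largest difference. Members and lists were chosen with earlier results of these data known. Fragments named for overlap or spread between sets of runs, and PAX7.1, ZF5, GR and OTX2, were named after their values were seen, as was the grouping of runs.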

Additional observations from a re-analysis of the deposited data

Results flagged for a closer look

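In the regions below, WT minus Sc methylation differed between the +SssI and −SssI pools by a test of the difference itself (Wald tests on reads, Benjamini-Hochberg adjustment). The values are +SssI minus −SssI in percentage points, averaged over the region with the largest change of each motif.

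The change was −51.2 for SOX17 (291 bp upstream to 151 bp downstream), −36.5 for FOXA1, −32.4 for RUNX1, −31.8 for CREB and −26.2 for FOXD3. In or near the downstream amplicon it was −23.6 for KAISO, −21.3 for OCT4, −18.8 for PAX7.1, −14.8 for PU.1 and −12.7 for NFY. WT minus Sc was higher in +SssI by 17.4 for SOX2, 19.5 for PAX7.2, 21.3 for KLF7, 22.3 for OCT4SOX2 and 42.0 for KLF4. Over the whole motif the change had the other sign for PU.1 (1.75 points) and PAX7.2 (−1.83 points), and neither passed its interval. Of 32 alternatives, a region for the motif was found in 30 for SOX17 and KLF4, 28 for CREB, FOXA1 and FOXD3, 27 for RUNX1 and PAX7.1, 26 for KAISO and KLF7, 25 for OCT4SOX2 and 22 for OCT4. It was found in 19 for PU.1, SOX2 and PAX7.2 and in 16 for NFY, and for these 4 many of the losses came from leaving out a single run. For SOX2, FOXA1 and OCT4SOX2, WT and Sc came from different run sets upstream in +SssI. These tests compare 1 pool with another, and the spread between cultures was not tested.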

How the results depend on the processing

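With 1 pool per condition, the tests measure read counting only, and depth limited N-MYC and FOXA1 WT most. No paired analysis was possible because the labels give the pools no shared replicate numbers, and what a run number marks is not given (values within run numbers are below). Over all fragments, 584 CpGs differed, 10 fragments had a lower region and 2 a higher one, and 15 motifs had a region of changed WT minus Sc. With no read filter, the Sc mean difference was −1.29 points. With upstream CpGs only, 1 fragment had a higher region and 8 motifs a region. With downstream CpGs only, 134 CpGs differed (90 lower, 44 higher), 6 fragments had a lower and 0 a higher region, and 5 motifs had a region. Smoothing over 50 bp gave 8 fragments with a higher region and 25 motifs. At 20 points, 247 CpGs differed (180 lower, 67 higher), with 6 lower and 1 higher region and 5 motifs. Requiring 5 CpGs gave 1 higher region and 9 motifs, and the likelihood-ratio test 8 motifs.

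Leaving out a run, or a set of runs (chosen after seeing the data), gave 443 to 596 CpGs (252 to 413 lower, 126 to 211 higher), 6 to 15 fragments with a lower and 2 to 5 with a higher region, and 7 to 17 motifs. The mean differences ranged from −5.64 to −1.15 points (Sc) and from −10.04 to −3.23 (WT). Leaving out runs also took out fragments and CpGs with too few reads left, so these counts and means are not over the same set. Within run numbers found in both tables, also added after seeing the data, the mean differences were −5.49 (Sc) and −1.58 (WT), over fragments with a shared run. Of 1026 values of named fragments under the alternatives, 32 had the other sign. In 29 of these, from 10 fragments, the interval over all reads took in 0. Of these, only FOXD3 Sc had a value past the half-width used, at −11.7 within shared run numbers. That half-width (4.73) was the one over all reads, and none was computed for shared run numbers. Upstream, FOXD3 Sc shared run 8 alone (80 reads in +SssI, 188 in −SssI). The other 3 of the 32 included CTCF.2 Sc (2.60) and SOX2 Sc (2.70) without runs 1, 8 and 11 of +SssI. Their lowest values with a run left out were −12.7 and −10.7. The last was RUNX1 WT (36.7) within shared run numbers, from run 8 upstream alone. The cause was not tested.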
